A study of Mus musculus with 2 samples.

Results

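The type I interferon response genes described here are 32 mouse genes that either carry the interferon signal or are induced by it. They were taken by name from the gene column of the array files, control spots aside, and all 32 were found, on 41 probes, among 24322 named genes. The arrays measured skin RNA of newborn C57BL/6N mice on postnatal day 0. Each of the 2 arrays held a pool of equal RNA amounts from 5 animals, either Pla2g4e+/+ (wild type) or Pla2g4e-/- (knockout). Pla2g4e encodes a cytosolic phospholipase A2, and the question of the series is whether the enzyme restrains skin inflammation of the psoriasis type. No treatment is named in the labels, nor is the part of Pla2g4e that was deleted.

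Type I interferons bind a receptor of the chains IFNAR1 and IFNAR2, whose kinases phosphorylate STAT2. With IRF9, STAT2 is part of the complex ISGF3, which binds the interferon-stimulated response element (ISRE) in promoters of induced genes. The induced proteins include sensors of foreign nucleic acid, effectors that block viral growth, and regulators that damp or extend the signal. In skin, keratinocytes, dendritic cells, macrophages and vessel cells can all mount this response.

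Median spot signals were 249 (wild type) and 241 (knockout), and 78.0% and 80.8% of probes were well above background. With 1 array per genotype, no spread between animals or pools could be estimated, no test was run, and every difference below describes these 2 pools. Signals were scaled by subtracting each array's 75th percentile of log2 signal; readings are given unscaled, wild type first, and differences and folds after scaling. The Pla2g4e probe read 662 and 320, a scaled ratio of 0.514, and whether it lies in the deleted part is not known. Its neighbour Pla2g4d was 6.42-fold higher in the knockout pool. The pools differed in sex: Ddx3y, Eif2s3y, Kdm5d and Uty read 27.8 to 5363 in the wild-type pool and 2.11 to 6.35 in the knockout pool, and Xist was 3.87-fold higher there. Genotype, sex and array position therefore cannot be told apart. Of the 31 interferon genes with a mapped probe, 0 lay on X or Y, a count that does not separate sex from genotype.

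Most interferon response genes had more signal in the knockout pool, by less than 2-fold in all but 1 case. Of the 32, 30 lay above 0, against 51.8% of all 19421 measured genes; the count was 28 with median scaling and 29 with quantile normalization, as Ifit2 and Stat2, both near 0, changed sign. At least 1.5-fold higher were 13 of the 32, against 6.72% of all measured genes, and 0 were at least 1.5-fold lower, against 4.49%. Only Ifi44 was higher by 2-fold, as 2.23% of all genes were, and 0 were lower by that size, against 1.44%. The median difference of the 32 was 0.53 log2, or 0.01 over all measured genes. The scanner software models an error for each spot. Combined over the 2 arrays, this gave each difference an error, mostly 0.20 log2, which covers the spots and not the animals. Apart from Oas3 (0.26), it was close to 0.20 for every member, so it acted as nearly 1 fixed cutoff. By more than their own error 27 of the 32 were higher, against 23.4% of all genes, and by more than 2 such errors 22 were, against 11.2%. Lower by more than its error was 1, Irf7, against 20.7% of all genes. Of the 19 members with signal above the median of measured genes, 7 reached 1.5-fold toward the knockout and 0 toward the wild type, against 4.11% and 2.45% of all genes of such signal.

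**Figure D1:**
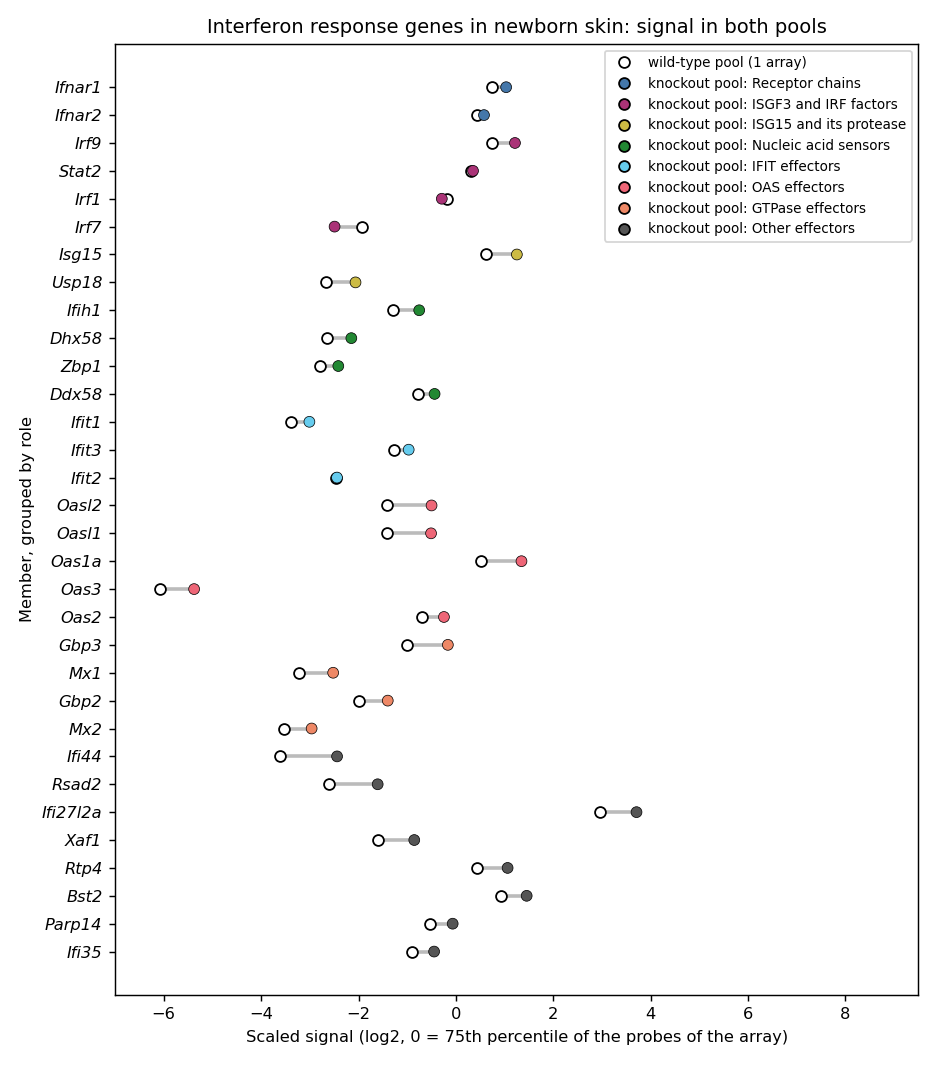
Scaled signal (log2, 0 at the array's 75th percentile) of the 32 genes in the wild-type pool (open circles) and the knockout pool (filled circles, coloured by role), 1 array each. In 30 of 32 genes the filled circle lies to the right, and Irf7 and Irf1 are the exceptions; levels of different genes come from different probes and are not comparable.

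The promoters of several members carry the core letters of the ISRE, and some are shown because genes that differed and genes that hardly differed both hold them. Whether ISGF3 binds there was not tested. A RefSeq promoter table (GRCm38.p6) had entries for 23 of the 32. The core of the element, the letters GAAA, then any 2 bases, then GAAA again, was searched on both strands in the 250 bases before each gene start; overlapping matches were merged. It was present for 10 of the 23 genes, and for 3.46% of all 27025 genes in the table, where a match at any start of a gene counted. Counted by promoter, it was in 2.98% of all 32851. The stretches below run 5′ to 3′ along the gene's strand, with the matches in capitals.
Isg15 (chr4:156200850-156200921, minus strand): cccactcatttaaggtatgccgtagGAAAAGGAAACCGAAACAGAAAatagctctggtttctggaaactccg
Oas1a (chr5:120907526-120907570, minus strand): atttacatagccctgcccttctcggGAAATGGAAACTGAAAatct
Gbp3 (chr3:142559974-142560039, plus strand): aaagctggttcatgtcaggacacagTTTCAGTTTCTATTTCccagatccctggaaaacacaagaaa
Rsad2 (chr12:26456538-26456597, minus strand): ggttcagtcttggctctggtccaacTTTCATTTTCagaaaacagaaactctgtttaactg
Ifit1 (chr19:34640760-34640819, plus strand): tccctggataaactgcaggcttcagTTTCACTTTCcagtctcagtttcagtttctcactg
Stat2 (chr10:128270251-128270310, plus strand): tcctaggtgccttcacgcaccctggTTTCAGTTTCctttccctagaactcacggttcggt

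In Isg15 3 overlapping matches ended 57 bases before the gene start, and in Oas1a 2 ended 5 bases before it. Gbp3 held 2 overlapping matches at the gene start shown and 0 at another start. Rsad2 held 1, and Ifit1 held 2, of which the first is in capitals. The Stat2 match lay farthest out, from 222 to 213 bases before the start. Bst2, Gbp2, Ifit3 and Oas3 also held a match. The 10 members with the letters ran from 0.04 log2 (Stat2) to 0.99 (Rsad2), with a median of 0.61, and 5 of them were at least 1.5-fold higher. The 13 without them ran from -0.57 (Irf7) to 1.17 (Ifi44), with a median of 0.46, and 4 of them were. Among measured genes outside the 32, 10.8% of the 463 with the letters were at least 1.5-fold higher, and 6.17% of the 13935 without. The medians of those groups were 0.05 and 0.01 log2.

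The receptor chains differed little between the pools. Ifnar1, the signalling chain bound by TYK2, read 3739 in wild type and 4285 in the knockout, which is 1.22-fold higher after scaling (0.29 log2, scanner error 0.20). Its other probes, read at 357 and 338 and at 94.3 and 83.0, gave 0.02 and -0.09 log2, so its probes did not share a direction. Ifnar2, the chain that binds interferon with high affinity, read 3002 and 3125, or 0.15 log2, which is within its scanner error. Both genes lie on chromosome 16.

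The transcription factors went different ways. Irf9, the DNA-binding part of ISGF3, read 3723 in wild type and 4858 in the knockout, 1.39-fold higher (0.48 log2). Stat2, its partner, read 2766 and 2674, or 0.04 log2 after scaling, so the ISGF3 factors on this list were not alike in size. Irf7, the factor that amplifies interferon alpha transcription and is itself induced by ISGF3, was the lowest of the 32. Its single probe read 587 and 373, or -0.57 log2 with an error of 0.20, just short of 1.5-fold, which it passed under median scaling and quantile normalization. Irf1, a factor strongly induced by interferon gamma, read 1966 and 1715, or -0.11 log2, within its error. A second Irf1 probe was not well above background on either array, at 3.57 and 4.08.

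Isg15 and Usp18 were both higher in the knockout pool, by close to the same size. Isg15 is a ubiquitin-like protein that is joined to other proteins, and Usp18 is the protease that removes it and also blocks signalling at IFNAR2. Isg15 read 3415 in wild type and 4991 in the knockout, 1.56-fold higher (0.64 log2, error 0.20). Its second probe read 272 and 386, or 0.60 log2. Usp18 read 352 and 502, 1.52-fold higher (0.60 log2), and stayed under 1.5-fold in 3 of the alternatives of processing.

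All 4 sensors were higher in the knockout pool, each by less than 1.5-fold. Ifih1, which encodes MDA5, the sensor of long double-stranded RNA, read 917 and 1243, or 0.53 log2. Dhx58, which encodes the related helicase LGP2, read 357 and 473, or 0.49 log2. Ddx58, which encodes RIG-I, the sensor of RNA with a free end triphosphate, read 1309 and 1547, or 0.33 log2, and its second probe gave 0.31. Zbp1, a sensor of Z-form nucleic acid that can start necroptosis, read 322 and 393, or 0.38 log2. The 2 Zbp1 probes differed most of any gene on the list: the dimmer, for another transcript, read 97.3 and 187, or 1.04 log2. A dim Ifih1 probe, at 12.5 and 18.5, passed the background mark on the knockout array only. Ifih1 and Zbp1 lie on chromosome 2, as Pla2g4e does.

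IFIT proteins, which bind foreign RNA and hold back its translation, stood lowest among the effectors. Ifit1 read 213 in wild type and 260 in the knockout, or 0.38 log2. Ifit3 read 920 and 1070, or 0.31 log2. Ifit2 read 402 and 385, or 0.03 log2 after scaling. None of the 3 reached 1.5-fold, and Ifit2 lay within its scanner error. Ifit3b, a near-identical neighbour of Ifit3 whose RNA may share its probe, gave 0.11 log2 on its brighter probe.

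The oligoadenylate synthetase family held some of the larger differences. Its enzymes sense double-stranded RNA and make the messenger that activates RNase L, though Oasl1 is known to lack that activity. Of its 5 genes on the list 4 were at least 1.5-fold higher, against 6.72% of all measured genes. Oasl2 read 832 and 1482, 1.90-fold higher (0.92 log2, error 0.20), and Oasl1 read 833 and 1471, 1.88-fold higher (0.91 log2). Oasl1 is instead known to hold back translation of Irf7. Oas1a read 3175 and 5329, 1.79-fold higher (0.84 log2). That probe lies at mm9 chromosome 5, 121326738 to 121326797, only 407 bases from a probe for the near-identical Oas1g, and 21540 bases from the second Oas1a probe. The second probe read 391 and 601, or 0.71 log2, while both Oas1g probes were below background. Oas3 was dim, at 32.9 and 50.4 (0.71 log2, error 0.26). Oas2 read 1370 and 1768, or 0.46 log2, and was the 1 listed gene of the family under 1.5-fold.

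The 4 interferon-induced GTPases on the list were all higher, on either side of the 1.5-fold mark. Gbp3, a guanylate-binding protein that acts on pathogen-holding vacuoles, read 1115 and 1869, 1.78-fold higher (0.84 log2). Its relative Gbp2 read 566 and 794, or 0.58 log2, just under 1.5-fold. Mx1 read 239 and 365, 1.63-fold higher (0.70 log2); in C57BL/6 mice this gene is known to carry a deletion that leaves no working protein. Mx2 read 193 and 269, or 0.57 log2. Measured GTPases of this kind outside the list ran from -0.03 log2 (Tgtp1) to 1.17 (Gbp11). Several differed little, among them Gbp10 (0.01), Gbp9 (0.04), Tgtp2 (0.05), Iigp1 (0.06) and Gbp5 (0.07). Gbp7 (0.77) and Gbp11 passed 1.5-fold.

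The remaining 8 effectors were higher without exception, where 51.8% of all measured genes lay above 0. The 2 largest differences on the list were among these 8. Ifi44, a cytoplasmic protein of the antiviral response, read 183 in wild type and 386 in the knockout, 2.24-fold higher (1.17 log2, error 0.21). Rsad2, which encodes viperin, the enzyme that makes a chain-terminating nucleotide, read 368 and 688, 1.99-fold higher (0.99 log2). Ifi27l2a, a small hydrophobic interferon-induced protein, read 17390 and 27411, 1.68-fold higher (0.75 log2). Xaf1, a promoter of apoptosis, read 742 and 1158, 1.66-fold higher (0.73 log2), and its dim second probe, at 27.1 and 49.9, gave 0.97. Rtp4, a chaperone of receptor transport, read 2999 and 4375, 1.55-fold higher (0.64 log2). Bst2, or tetherin, which holds budding virus at the cell surface, read 4217 and 5739, or 0.54 log2. Parp14, an ADP-ribosyltransferase, read 1536 and 2001, or 0.47 log2, and Ifi35 read 1192 and 1537, or 0.46 log2. These last 3 genes stayed under 1.5-fold.

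**Figure D2:**
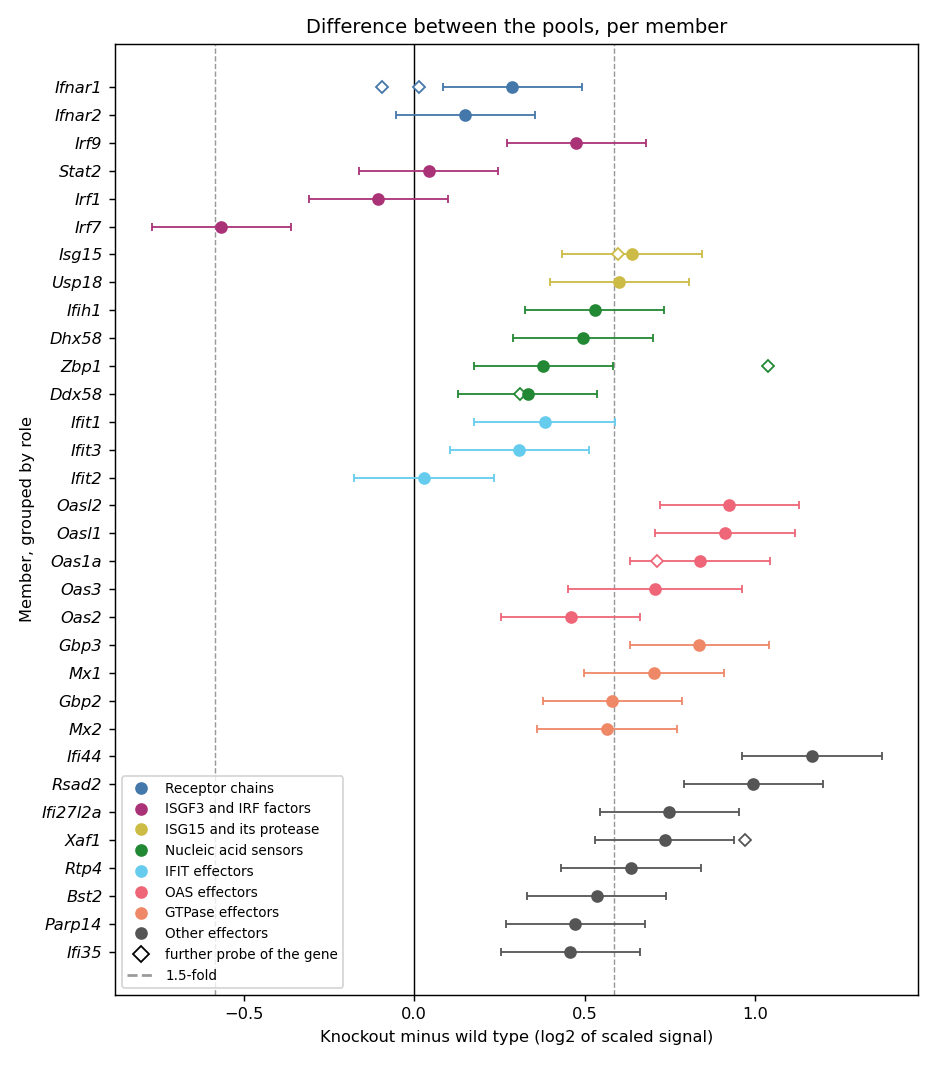
Knockout minus wild type (log2 of scaled signal) for the 32 genes by role. Bars are the error of a difference, combined from the scanner software's spot errors on the 2 arrays. Diamonds are further probes of a gene, and dashed lines mark 1.5-fold. The effectors reach from 0.03 (Ifit2) to 1.17 (Ifi44), while Irf7 at -0.57 stands apart on the left.

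Set side by side by role, effectors and the ISG15 pair had the larger differences. Of the 20 effectors, 11 were at least 1.5-fold higher, against 6.72% of all measured genes, with a median of 0.67 log2. All 20 lay above 0, against 51.8% of all measured genes, though Ifit2 fell below 0 under median scaling and quantile normalization. Of the 12 other members, 2 were at least 1.5-fold higher, namely Isg15 and Usp18, and the median of the 12 was 0.36 log2. The medians were 0.62 for Isg15 and Usp18, 0.44 for the sensors, 0.22 for the receptor chains and -0.03 for the 4 factors, of which Stat2 and Irf9 had 0.26. Within the effectors, the medians were 0.84 for the oligoadenylate synthetases, 0.64 for the GTPases, 0.69 for the remaining effectors and 0.31 for the IFIT genes. Without replicate arrays, these gaps between roles have no test.

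**Figure D3:**
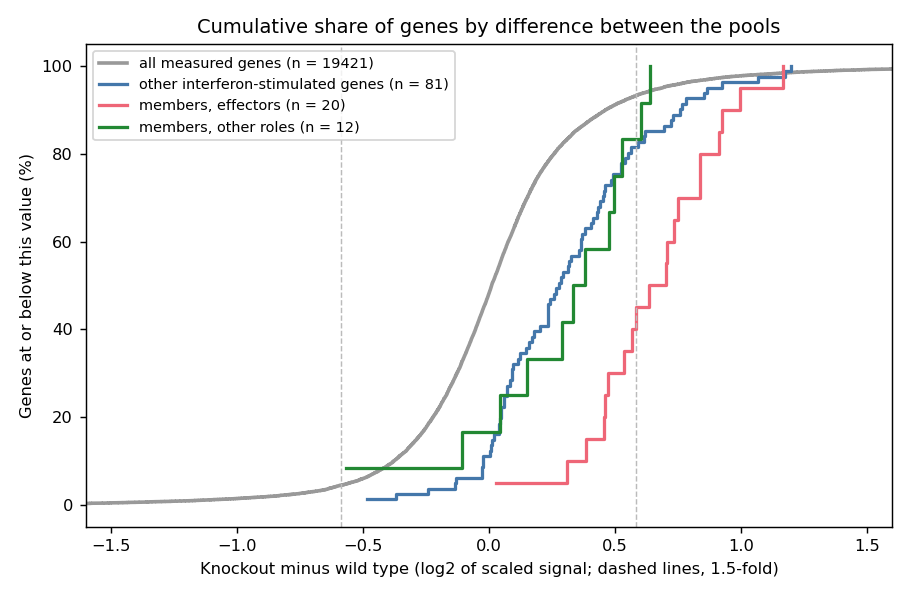
Cumulative share of genes (%) by knockout minus wild type difference (log2), for all 19421 measured genes, 81 other interferon-stimulated genes, the 20 effectors and the 12 members with other roles. The effector curve lies farthest to the right, with a median of 0.67, and the 81 other interferon-stimulated genes have a median of 0.28.

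None of the interferon genes that could be measured passed 1.5-fold. Of 16 type I interferon genes, 10 had a probe well above background on both arrays, with readings between 30.8 and 137 in the wild-type pool. Ifnb1, Ifna4 and Ifne were not well above background on either array, and no usable probe carried the names Ifna6, Ifna9 or Ifnz. Ifnb1, the interferon that cells commonly make first, read 2.80 and 2.02. The 10 had a median of -0.09 log2, with 0 past 1.5-fold either way, against 6.72% of all measured genes higher and 4.49% lower. Ifna7 (-0.32) and Ifna12 (-0.29) were lowest, and Ifna11 (0.06) and Ifnk (0.30), an interferon made by keratinocytes, highest. Interferon alpha genes are close paralogs that can share signal. Ifng, the type II interferon, read 7.75 and 10.9, also not well above background, and the type III gene Ifnl3 stood at -0.15 log2.

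Some genes of signalling and induction outside the 32 passed 1.5-fold, as 6.72% of all measured genes did toward the knockout and 4.49% toward the wild type. Among the 4 other interferon receptors Ifngr1, the ligand-binding chain for interferon gamma, was 2.16-fold higher, at 5052 and 10265, while Ifngr2 stood at -0.18, Ifnlr1 at 0.01 and Il10rb at 0.17. Among 13 negative regulators 0 passed, from Nlrc5 (-0.43) and Socs1 (-0.32) to Irf2 (0.37) and Samhd1 (0.58). Of 17 measured genes that lead to interferon production, 2 were at least 1.5-fold higher. These were Ifi204, a DNA sensor (0.94), and Tlr7, a sensor of single-stranded RNA encoded on the X chromosome (0.65). The lowest were Traf3 (-0.46) and Cgas (-0.37), with 0 at least 1.5-fold lower.

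A wider list of other interferon-stimulated genes leaned the same way, less far. Of 81 measured, 15 were at least 1.5-fold higher, 0 were lower by that size, and 72 lay above 0, with a median of 0.28 log2. Over all measured genes these shares were 6.72%, 4.49% and 51.8%. Ifi203 (1.20), a protein of the PYHIN family, and Gbp11 (1.17), a GTPase, were highest. Cd274, the checkpoint ligand PD-L1 (-0.48), and Cgas (-0.37) were lowest. Cgas is counted here and among the genes that lead to interferon production. The list was drawn up by hand with earlier results of these data known, so its direction is not independent support.

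Genes linked to interferon gamma did not lean one way. Of 18 measured, 1 was at least 1.5-fold higher, Irf8, a factor of myeloid cells (0.73), followed by the peptide transporter Tap2 (0.40). The 4 lower by that size belong to antigen presentation on MHC class II: H2-Aa (-0.76), H2-Ab1 (-0.95), the chaperone Cd74 (-0.62) and H2-Eb1 (-0.77). The median was 0.05 log2, and 6.72% and 4.49% of all measured genes were higher and lower by that size.

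**Figure D4:**
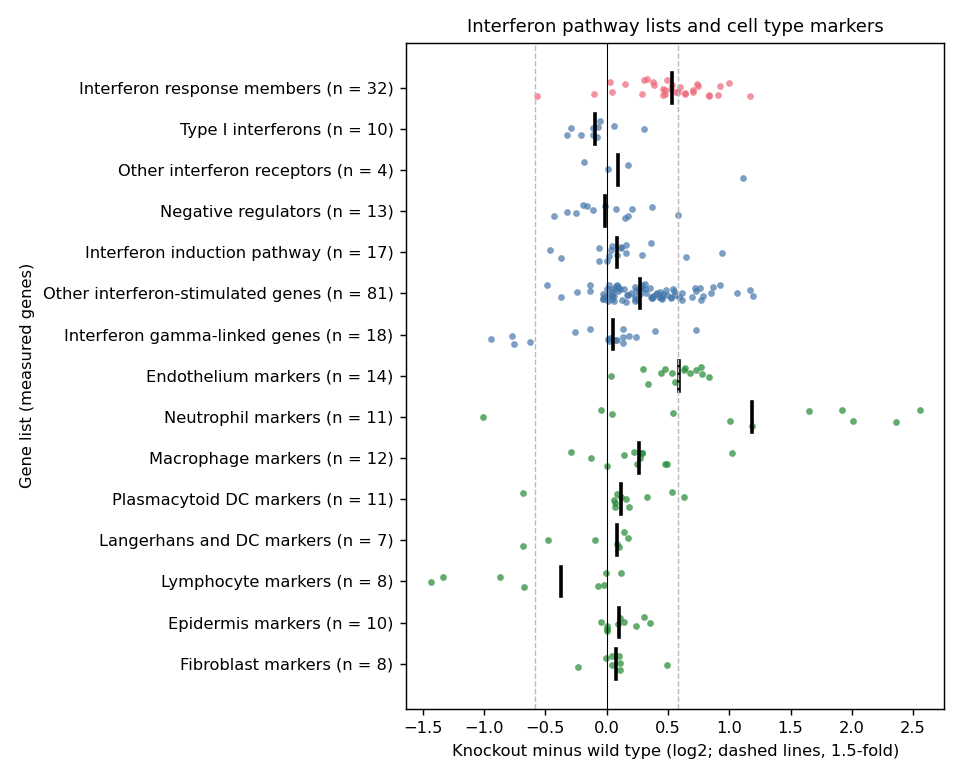
Knockout minus wild type (log2) of each measured gene in the interferon pathway lists (blue), the 32 members (red) and marker lists of cell types in skin (green); black bars are medians and dashed lines mark 1.5-fold. The members (median 0.53), endothelium markers (0.59) and neutrophil markers (1.19) lie to the right, and lymphocyte markers (-0.37) to the left.

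Markers of several cell types differed between the pools beside the interferon genes; their counts stand against 6.72% higher and 4.49% lower by 1.5-fold over all measured genes. Sums of scaled signal add different probes, so bright probes dominate them. In whole skin, more cells of a type and more RNA per cell cannot be told apart. Endothelium markers were higher by a similar size: 7 of 14 were at least 1.5-fold higher, 0 lower, with a median of 0.59 log2, and their scaled signals summed to 21.7 in wild type and 30.2 in the knockout. Neutrophil markers had a median of 1.19 log2, with 7 of 11 at least 1.5-fold higher and 1 lower (Camp), and sums of 59.6 and 66.2, carried mostly by Csf3r (125040 and 113910, -0.04 log2). Mmp8, dim in wild type at 21.6 against 119 in the knockout, was 5.88-fold higher, and S100a9 was 5.14-fold higher. Of the other raised markers, Cxcr2, Ngp, Ltf and Retnlg were also dim in wild type, at 22.4 to 86.5. S100a8 was not, at 1631 and 6160. Whether the S100a8, S100a9 and Csf3r probes read neutrophils in whole skin was not tested. Mmp9 was not well above background on either array. Macrophage markers had a median of 0.26 log2, with 1 of 12 past 1.5-fold (Cd163) and sums of 22.6 and 24.8. The part of these cells in the interferon values was not tested.

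Markers of the other cell types had smaller or negative medians. Markers of plasmacytoid dendritic cells, which can make large amounts of type I interferon, had a median of 0.11 log2. Of these 11 markers, 1 was higher (Ccr9) and 1 lower (Upb1), and Bst2 is on this list too. Their sums were 116 and 130, carried mostly by Ly6d (106398 and 113474) and Siglech (85366 and 84796). These probes were about as bright as the epidermis marker Krt14 (92691 and 87086). Whether such bright probes read plasmacytoid dendritic cells was not tested. Markers of Langerhans and other dendritic cells had a median of 0.09 over 7 genes, with 1 lower (Flt3), sums of 1.11 and 1.08, and Cd207 and Xcr1 not well above background on either array. Lymphocyte markers had a median of -0.37 over 8 genes, with 4 lower, 0 higher, sums of 1.95 and 1.78, and Cd8a and Ncr1 not well above background. Epidermis and fibroblast markers had medians of 0.10 and 0.07 log2, with 0 past 1.5-fold. Their sums were 530 and 555, and 344 and 362. The part of these cell types in the interferon values was not tested either.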

How the data were processed

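Skin RNA of 2 pools, 1 per genotype and 5 animals each, was hybridised to 1-colour Agilent arrays (design 026655, Cy3), starting from 200 ng of RNA, per the labels. The scanner software was Agilent Feature Extraction 11.5.1.1, per the submitters' processing notes. The deposited files hold spot intensity, already background-subtracted and spatially detrended, per the file headers, with probe positions on mm9. The deposited value table holds a ratio, equal to that intensity divided by a constant per array (2406 and 2273) over all 44397 features within a relative tolerance of 1e-05.

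Control and outlier spots (163 and 135) were left out; saturated spots numbered 0. Spots of a probe were averaged, log2 transformed and reduced by the array's 75th percentile. Probes were named through RefSeq accessions (28736), symbols (2034) or synonyms (163) of a GRCm38.p6 table, or kept the file's name (1736), and 6753 had none. Of the probes of a gene that both arrays marked as well above background, the brightest stood for the gene. Differences are knockout minus wild type, counted at 1.5-fold and 2-fold beside all measured genes. The code was tested on simulated data.

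The 32 members, the lists and the sizes were chosen with earlier results of these data known; 1 list is not reported here. All members are accounted for. From other lists up to 4 genes were named, the 2 highest and 2 lowest. Relatives of members, and genes needed to spell out a count, a limit or a pathway step, were also named. Alternatives changed the scaling, background correction (normexp in limma 3.58.1, offset 50), probe choice, filters, naming, outlier spots and source. Python 3.11.15 and R 4.3.3 were used.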

Additional observations from a re-analysis of the deposited data

How the results depend on the processing

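Across 10 alternatives of processing, the median of the members stayed between 0.48 and 0.55 log2, and the median of all measured genes between -0.05 and 0.05. The member median covers all 32 except with genes above the median signal, where it covers 19 (0.48). The count at least 1.5-fold higher was 10 with normexp, 12 with median scaling or quantile normalization, 14 with probes averaged, and 13 otherwise, except among the 19 members with signal above the median of measured genes, where it was 7. At 2-fold in place of 1.5-fold it was 1. The count at least 1.5-fold lower was 1 with median scaling and 1 with quantile normalization, in both cases Irf7. The 10 members at least 1.5-fold higher in every setting that measured them were Gbp3, Ifi27l2a, Ifi44, Isg15, Oas1a, Oasl1, Oasl2, Rsad2, Rtp4 and Xaf1. Oas3 stood at 0.43 with normexp. With probes averaged, Ifnar1 stood at 0.07 and Zbp1 at 0.71. Ifit2 and Stat2 changed sign in at least 1 setting. No paired analysis was possible because each group is 1 array, and for the same reason no array could be left out. Usp18 was under 1.5-fold in 3 settings, Mx1 in 1 and Oas3 in 1. Dim probes limit the value of Oas3, among others.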

Other observations

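Several genes of the PYHIN family, interferon-inducible proteins of chromosome 1 that bind DNA, had differences as large as those of the leading effectors. The group was picked after its values were seen. Of its 9 measured genes, 6 passed 1.5-fold toward the knockout and 0 toward the wild type, against 6.72% and 4.49% of all measured genes, with a median of 0.92 log2. Ifi203 read 1407 in wild type and 3028 in the knockout, 2.29-fold higher after scaling, and its 4 probes ran from 0.68 to 1.41 log2. Ifi207 read 2169 and 4515, 2.22-fold higher, while its second probe gave 0.28 log2. Ifi205 read 1263 and 2484, 2.09-fold higher. Ifi204 read 6480 and 11701, 1.92-fold higher, and its second probe gave 0.99 log2. Mndal read 1311 and 2334, 1.90-fold higher. Ifi209 read 66.1 and 103, 1.66-fold higher. Ifi202b stood at 0.20 log2 and Ifi208 at -0.13, with other Ifi208 probes above 0. Aim2, the inflammasome sensor of the family, read 82.0 and 81.7, or 0.09 log2. Close paralogs in this family can share signal.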
